A study of Homo sapiens with 10 samples.

Results

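The genes described here build the early secretory pathway, the route by which a protein enters the endoplasmic reticulum (ER) and travels to the Golgi. They are 50 listed genes for ER translocation, the COPII and COPI vesicle coats, p24 cargo receptors and golgins, and all 50 were found by Ensembl ID among the 26346 genes of the files. Polyadenylated RNA was sequenced from EndoC-βH1, a clonal line of human beta cells derived from fetal pancreas that makes insulin. The cells were grown on plates coated with matrigel and fibronectin in DMEM. They received either a control siRNA or the SRp55 siRNA labelled siSR#2, with 5 independent preparations in each group. Every library title, in both groups, also holds the word exposed, and the titles do not say to what. SRp55, the product of SRSF6, is a splicing factor of the SR protein family. A single siRNA was used in a single line, so an effect of its sequence and an effect of losing SRp55 cannot be told apart.

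Secretory proteins are recognised as they leave the ribosome by the signal recognition particle, which docks at its receptor on the ER and hands the chain to the SEC61 channel. Signal peptidase removes the signal peptide, COPII coats bud vesicles from the ER towards the Golgi, and COPI coats return escaped proteins and move cargo within the Golgi. Golgins are long coiled-coil proteins of the Golgi surface that capture arriving vesicles. Beta cells rely on this route because preproinsulin, the precursor of insulin, enters the ER through it.

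Reads assigned to transcripts came to between 61.9 and 189.8 M (mega) per library. Levels are in RPKM, which divides reads by transcript length and by the library total. SRSF6, the siRNA target, stood at 98.2 ± 3.24 RPKM with control siRNA against 24.9 ± 3.78 RPKM with SRp55 siRNA (SD, n = 5), and the groups did not overlap. All 8 beta cell markers looked up had a mean of at least 0.5 RPKM. Their summed level was 12655 to 24725 RPKM in control and 18130 to 28193 RPKM in SRp55 siRNA libraries. CHGA led at an average of 11202 RPKM over all libraries and the lowest marker averaged 19.4 RPKM, so the sum leans on CHGA. The acinar markers PRSS1, CELA3A and CTRB1, the endothelial marker CDH5 and the islet hormone PPY were listed at 0 in every library. Other markers of non-beta cells were not at 0: over all libraries SST, a hormone of delta cells, averaged 101 RPKM, CD68 of macrophages 41.2, the duct keratin KRT19 29.3, the acinar enzyme CPA1 21.5 and the mesenchymal collagen COL1A1 2.40. The lists they lead summed to 53.5 to 241.0 (islet hormones), 33.5 to 49.4 (immune), 18.8 to 30.3 (duct), 16.1 to 27.3 (acinar) and 0.693 to 2.67 RPKM (mesenchymal) in control libraries. In SRp55 siRNA libraries the same sums were 41.9 to 189.7, 24.9 to 48.9, 22.3 to 58.7, 15.9 to 39.6 and 0.749 to 6.37 RPKM. In each of these 5 lists the leading gene was the only one with a mean of at least 0.5 RPKM. No gene of these 5 lists passed the test applied to all genes, and their part in the results was not tested. Of the 8 beta cell markers 1 was called higher in that test and 0 lower, where 3.76% and 1.25% of all genes were. In bulk RNA, fewer cells of a type and less RNA per cell cannot be told apart.

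All 50 genes passed the filter of a mean of at least 0.5 RPKM, with means over all libraries from 6.74 to 456.2 RPKM and at least 614 reads in each library. After SRp55 siRNA, SEC23A rose, COPB2 fell and 48 of the 50 did not pass the test (limma on log2(RPKM + 0.5), Benjamini-Hochberg adjusted p under 0.05 over 13630 genes). Among all genes tested, 3.76% were called higher and 1.25% lower, and 1 of 50 is 2%. The members' count is near the background. Log2 fold changes are given for SRp55 siRNA over control siRNA, relative to the median tested gene, which lay 0.11 higher in SRp55 siRNA libraries as deposited. The limma p-values of genes test the fold change as deposited, before this median is taken off. The median member was at -0.06, with an interquartile range of -0.20 to 0.16, against -0.17 to 0.19 for all genes tested. An unadjusted p under 0.05 was found for 12 members (24%), 6 higher and 6 lower, against 21.9% of all genes. The 2 groups of libraries did not overlap for SRPRA, SEC23A, SEC23B and COPB2, which is 8% of the members against 7.92% of genes tested.

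**Figure D1:**
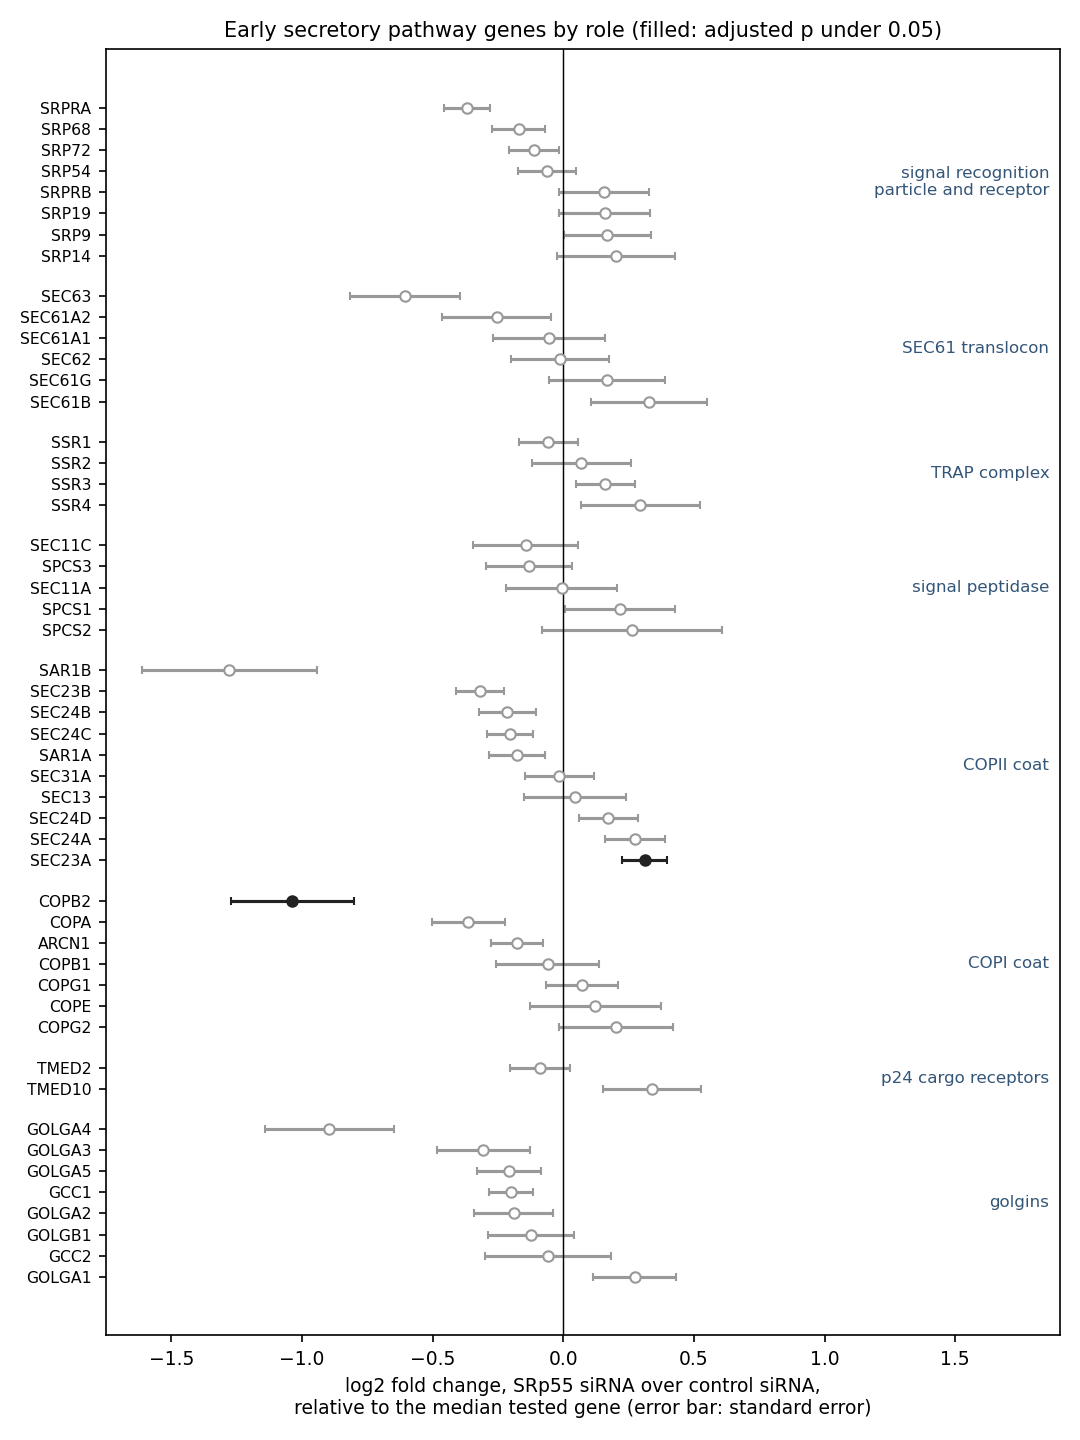
Log2 fold change of each of the 50 genes (x axis, SRp55 siRNA over control siRNA relative to the median tested gene) with its standard error, grouped by role. Filled points passed the adjusted test, which is of the fold change as deposited: SEC23A at 0.31 and COPB2 at -1.04. SAR1B at -1.28 and GOLGA4 at -0.90 have fold changes of like size and did not pass.

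How the genes were summed and scaled moved the number of calls. With the values rescaled by median-of-ratios size factors, 0 members were called higher and 6 lower (COPB2, GOLGA4, SAR1B, SEC23B, SEC63 and SRPRA), where 3.18% and 3.67% of all genes were. With the estimated reads of each gene in place of RPKM, 1 was called higher and 8 lower, these 6 with COPA and GOLGA3, where 7.3% and 9.87% of all genes were. The titles give replicate numbers and do not say that equal numbers form pairs. An alternative fit treated them as pairs, with the replicate number as a block. In it 4 members were called higher (SEC23A, SEC24A, SEC24D and TMED10) and 4 lower (COPB2, GOLGA4, SAR1B and SRPRA), where 9.39% and 3.7% of all genes were. Among these settings the share of members called lower exceeded that of all genes with size factors (12%), with summed reads (16%) and with the block (8%), a description with no test of the difference.

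The signal recognition particle and its receptor were measured by 8 genes, none of which passed. SRP9, an RNA-binding subunit of the particle, was the most abundant, at 417, 402, 435, 409 and 374 RPKM in control replicates 1 to 5 and at 700, 485, 495, 500 and 346 RPKM in SRp55 siRNA replicates 1 to 5. SRp55 siRNA replicates 1 to 4 lay above every control, with replicate 1 highest, and replicate 5 lay below every control (log2 fold change 0.17, SE 0.17). SRPRA, the receptor subunit that binds the particle, had the largest fold change of this group. It was at 68.9, 71.8, 70.8, 72.4 and 64.9 RPKM in control and at 56.9, 56.9, 61.6, 59.9 and 55.5 RPKM in SRp55 siRNA libraries. Every SRp55 siRNA library lay below every control library, by a narrow and even margin, and the mean was 83.4% of the control mean. On the log2 scale its fold change came to -0.37, or -0.26 as deposited (SE 0.09, limma adjusted p = 0.117). SRPRA passed under the replicate block (adjusted p = 0.0407), with size factors (0.0372) and with summed reads (0.00544). The other 6 genes lay between -0.17 (SRP68) and 0.20 (SRP14).

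Of 6 genes of the SEC61 translocon and its partners none passed. SEC61B, the small beta subunit of the channel, was at 116, 74.6, 76.8, 160 and 74.9 RPKM in control and at 130, 134, 131, 159 and 101 RPKM in SRp55 siRNA libraries (log2 fold change 0.33, SE 0.22, limma adjusted p = 0.286). Control replicates 1 and 4 reached the SRp55 siRNA range and the other controls lay below it. SEC63, a membrane protein that joins the channel to the lumenal chaperone BiP, was at 125, 113, 95.6, 152 and 86.1 RPKM in control and at 68.9, 88.8, 92.1, 105 and 52.6 RPKM in SRp55 siRNA libraries. Each SRp55 siRNA library was below the control of the same number, but the groups overlapped (log2 fold change -0.61, SE 0.21, limma adjusted p = 0.196). SEC61A1, the pore-forming subunit, was at -0.05 and its less abundant paralog SEC61A2 at -0.26.

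The TRAP complex, which sits beside the channel and helps some signal peptides open it, and signal peptidase gave 9 genes, none of which passed. SSR4, the delta subunit of TRAP, was at 506, 310, 301, 597 and 280 RPKM in control and at 590, 562, 492, 517 and 379 RPKM in SRp55 siRNA libraries (log2 fold change 0.29, SE 0.23). SPCS2, an accessory subunit of signal peptidase, was at 184, 114, 92.1, 272 and 127 RPKM in control and at 257, 203, 113, 315 and 130 RPKM in SRp55 siRNA libraries (0.26, SE 0.34). SEC11C, one of the alternative catalytic subunits, was at 446, 269, 298, 478 and 352 RPKM in control and at 496, 317, 317, 370 and 288 RPKM in SRp55 siRNA libraries (-0.14, SE 0.20). In each of these genes control replicates 1 and 4 were the highest of the control libraries.

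That rank order of controls was seen in 21 of the 50 members (42%) and in 41.3% of all genes tested. Control replicates 1 and 4 also had the largest assigned part of the library total, at 87.1% and 90.9%. In control replicates 2, 3 and 5 it was 77.9%, 80.4% and 74.2%. Whether this part bears on the rank order was not tested. The coefficient of variation among controls was over 25% in 11 members (SRP14, SRPRB, SEC61B, SEC61G, SSR4, SPCS1, SPCS2, SAR1B, COPG2, TMED10 and GOLGA3), against a median of 16.2% over the 50. Without control replicates 1 and 4, a comparison chosen after the data were seen, 7 members were called higher (SEC23A, SEC61B, SPCS1, SRP14, SRPRB, SSR4 and TMED10) and 0 lower. In that fit 9.93% of all genes were called higher and 0.831% lower.

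COPII was measured by 10 genes, of which SEC23A rose, none fell and 9 did not pass. SEC23A, a GTPase-activating subunit of the inner coat (chromosome 14, 39501123 to 39578850, minus strand, GRCh37), was at 12.2, 11.2, 13.0, 11.6 and 12.4 RPKM in control and at 16.1, 15.8, 17.5, 16.1 and 16.1 RPKM in SRp55 siRNA libraries. The groups were tight and did not overlap. The mean moved from 12.1 ± 0.71 to 16.3 ± 0.688 RPKM (SD, n = 5), 135% of control. The SEC23A log2 fold change was 0.42 as deposited and 0.31 relative to the median tested gene (SE 0.09, limma adjusted p = 0.0216). The call was lost with size factors (adjusted p = 0.121) and without control replicate 2 (0.0676), control replicate 5 (0.0507), SRp55 siRNA replicate 3 (0.0591) or SRp55 siRNA replicate 4 (0.0520). SEC23B, its paralog and the more abundant of the pair, stood at 56.8 ± 3.80 RPKM with control siRNA against 49.0 ± 2.58 RPKM with SRp55 siRNA (SD, n = 5), with no overlap (log2 fold change -0.32, SE 0.09, limma adjusted p = 0.215).

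SAR1B, the small GTPase that starts COPII assembly, had the lowest fold change of all 50 genes. Its gene sum (chromosome 5, 133936834 to 133984961, minus strand, GRCh37) was 53.1, 57.2, 46.3, 33.1 and 28.9 RPKM in control and 25.4, 11.5, 33.3, 22.8 and 9.61 RPKM in SRp55 siRNA libraries. The SRp55 siRNA mean was 47.0% of the control mean and 5 of 5 numbered pairs were lower, but SRp55 siRNA replicate 3 reached the range of control replicates 4 and 5. On the log2 scale the fold change came to -1.28, or -1.17 as deposited (SE 0.34, limma adjusted p = 0.0728). SAR1B passed under the replicate block (0.0471), with size factors (0.0316) and with summed reads (5.3e-05). SEC13, a cage subunit shared with the nuclear pore and the most abundant COPII gene, was at 73.9, 64.8, 60.7, 85.6 and 59.9 RPKM in control and at 117, 80.1, 80.8, 57.3 and 58.6 RPKM in SRp55 siRNA libraries (log2 fold change 0.05, SE 0.20). SEC13 did not separate the groups, and SRp55 siRNA replicate 1 stood above the rest.

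**Figure D2:**
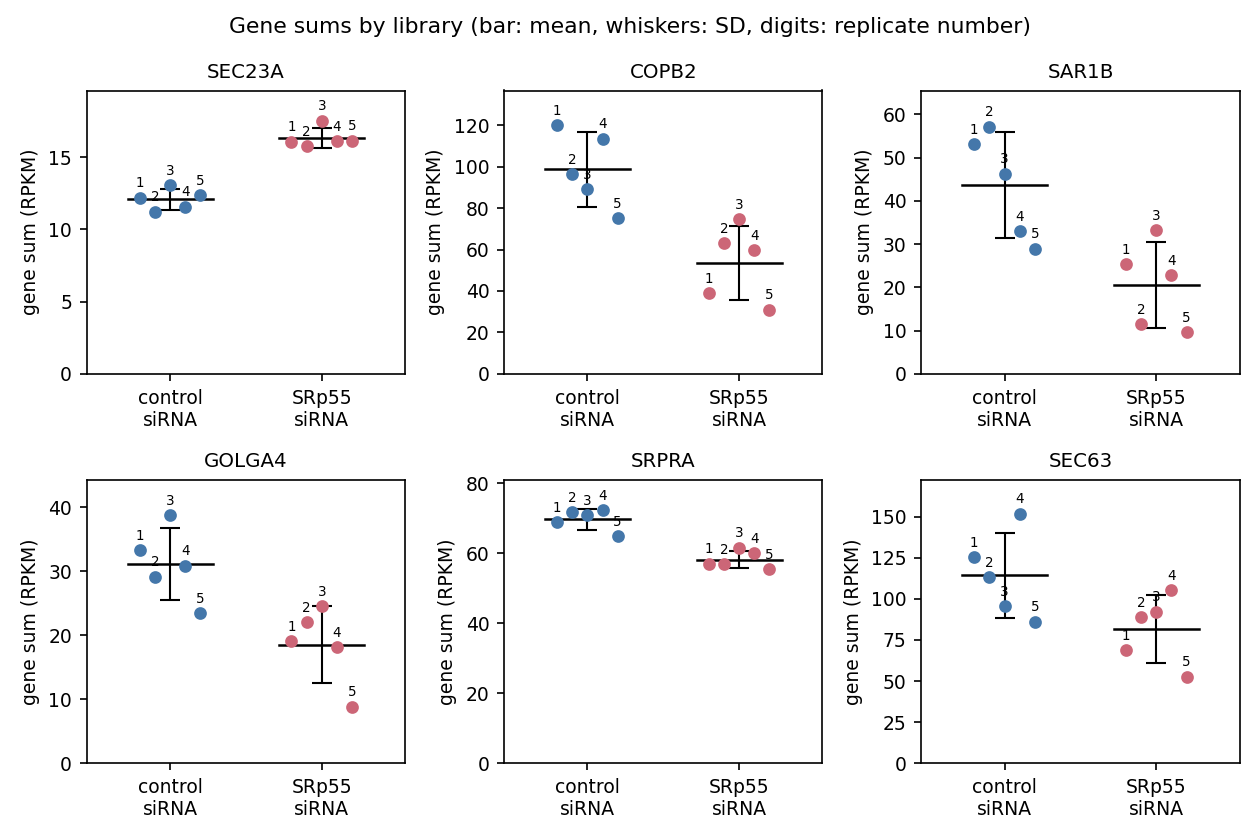
Gene sums in RPKM (y axis, from 0) for 6 genes in each control siRNA and SRp55 siRNA library, with the mean (bar), SD (whiskers) and replicate number. SEC23A, COPB2 and SRPRA show no overlap between the groups, while SAR1B, GOLGA4 and SEC63 overlap.

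Several COPII subunits come as paralogs, and RPKM is per length, so each paralog can be given as a share of its family. Each of 9 such shares was compared in a two-sided exact permutation test over the 10 libraries (smallest possible p = 0.00794). Benjamini-Hochberg adjustment was over the 9. Those that passed were the 6 COPII shares, and the others tested were of SEC61A1, SEC11A and COPG1. No paralog family outside the listed genes was tested, so the count has no background to be read against. SEC23A made up 17.6% ± 1.00 of SEC23A and SEC23B in control and 25% ± 0.943 in SRp55 siRNA libraries (SD, n = 5; exact adjusted p = 0.0238). Among the cargo-binding SEC24 proteins, SEC24A went from 9.38% ± 0.825 to 11.4% ± 0.805 and SEC24D from 41.5% ± 2.23 to 46.4% ± 1.87 (exact adjusted p = 0.0238 for each). SEC24C went the other way, from 39.7% ± 2.22 to 34.1% ± 2.34 (exact adjusted p = 0.0357), and so did SEC24B, from 9.5% ± 0.807 to 8.11% ± 0.832 (0.0476). SEC24D was thus the largest of the SEC24 family in SRp55 siRNA libraries and near SEC24C in control libraries. The 4 SEC24 shares sum to the whole and are not independent of each other.

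SAR1A made up 34.9, 35.8, 38.7, 45.2 and 47.3% of SAR1A and SAR1B in control and 53.7, 71.8, 44, 55.6 and 70.3% in SRp55 siRNA libraries. The mean moved by 18.7 percentage points (exact adjusted p = 0.0429), and SRp55 siRNA replicate 3 overlapped the controls. These shares rest on gene sums, which weight short and long transcript models alike. In SRp55 siRNA replicate 3, a 708-base SAR1B transcript, ENST00000502539.1, held 17.8 of the 33.3 RPKM of SAR1B. Its level was 0.0647, 10.1, 0, 0.654 and 0 RPKM in control and 8.85, 0, 17.8, 2.13 and 0 RPKM in SRp55 siRNA libraries. SAR1A itself stood at 28.6 ± 2.23 RPKM with control siRNA against 27.2 ± 2.86 RPKM with SRp55 siRNA (SD, n = 5). The shares of SEC61A1, SEC11A and COPG1 moved by 0.59, 2.07 and -1.91 points and did not pass (exact adjusted p = 0.746, 0.536 and 0.418).

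**Figure D3:**
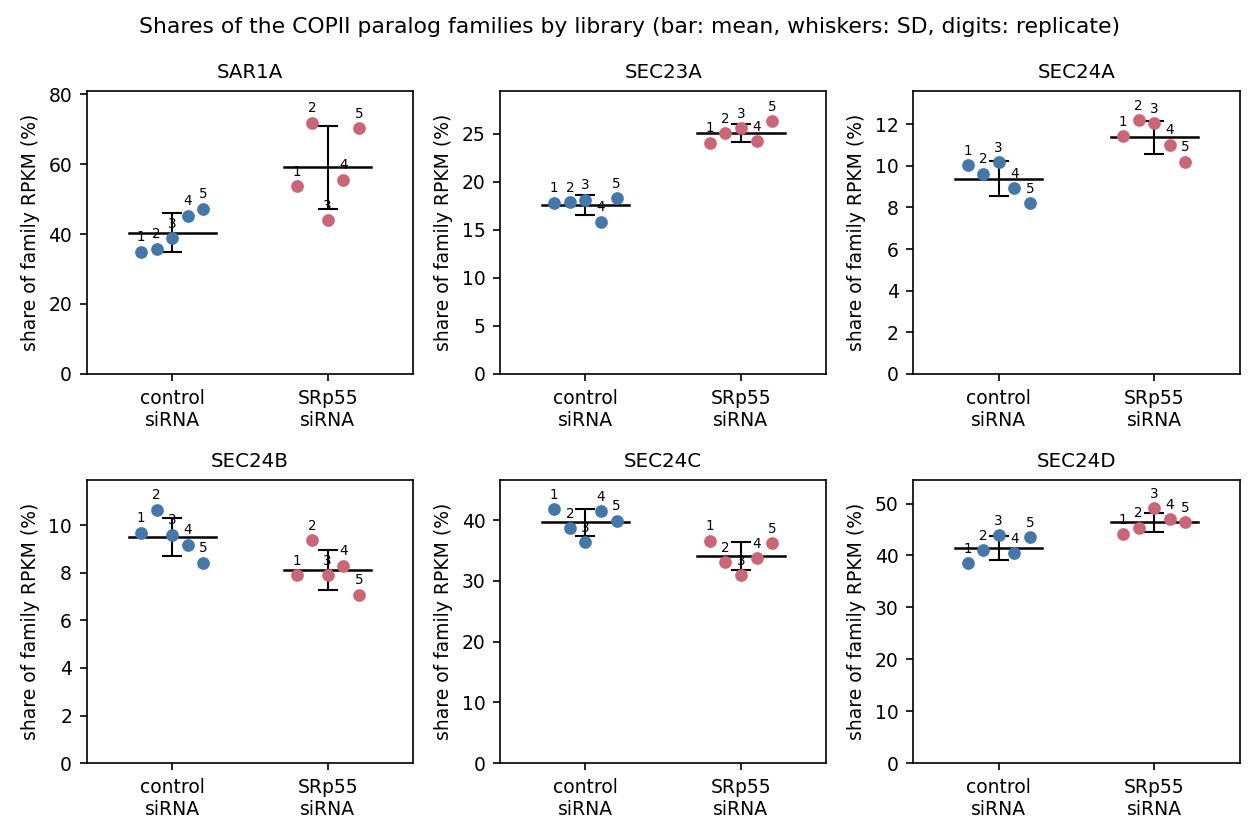
Percent of the family's summed RPKM (y axis, from 0) held by SAR1A, SEC23A and the 4 SEC24 genes in each library, with mean (bar), SD (whiskers) and replicate number. The SEC23A, SEC24A and SEC24D shares do not overlap between control siRNA and SRp55 siRNA, and SEC24B, SEC24C and SAR1A do.

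COPI was measured by 7 genes, of which COPB2 fell, none rose and 6 did not pass. COPB2, the beta-prime subunit of the outer coat (chromosome 3, 139074442 to 139108574, minus strand, GRCh37), was at 120, 96.3, 89.0, 113 and 75.2 RPKM in control and at 39.0, 63.1, 74.5, 59.8 and 31.1 RPKM in SRp55 siRNA libraries. The highest SRp55 siRNA library lay just below the lowest control, and the mean moved from 98.7 ± 18.1 to 53.5 ± 17.9 RPKM (SD, n = 5), 54.2% of control. The COPB2 log2 fold change was -0.93 as deposited and -1.04 relative to the median tested gene (SE 0.24, limma adjusted p = 0.0472). The call was lost with no filter on low genes (adjusted p = 0.0722) and without any 1 library other than SRp55 siRNA replicate 3, at adjusted p = 0.0585 to 0.105. COPG1, a gamma subunit of the inner coat, was at 86.2, 74.1, 70.7, 101 and 65.0 RPKM in control and at 90.2, 88.4, 95.6, 96.6 and 75.5 RPKM in SRp55 siRNA libraries (0.07, SE 0.14). Its groups overlapped, and its sign turned with summed reads (-0.04). COPA, the partner of COPB2 in the outer coat, had a log2 fold change of -0.36 (SE 0.14, limma adjusted p = 0.317).

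Neither p24 cargo receptor passed. TMED10, which ties cargo to both coats, was at 247, 168, 177, 279 and 150 RPKM in control and at 304, 281, 268, 301 and 210 RPKM in SRp55 siRNA libraries (log2 fold change 0.34, SE 0.19, limma adjusted p = 0.196; 0.0488 with the replicate block). It was higher in 5 of 5 numbered pairs, with control replicates 1 and 4 inside the SRp55 siRNA range. The longest protein-coding transcript of TMED10 (4127 bases, 20.7% of the control sum) had overlapping groups with a smaller fold change, at 42.3 ± 3.79 and 44.5 ± 5.05 RPKM (SD, n = 5; 0.06, limma adjusted p = 0.777). TMED2 was at -0.09.

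Of 8 golgins none passed, and 7 lay below the median tested gene, with a group median of -0.19. GOLGA4, a golgin of the trans-Golgi network, was at 33.3, 29.2, 38.8, 30.9 and 23.4 RPKM in control and at 19.1, 22.1, 24.6, 18.1 and 8.85 RPKM in SRp55 siRNA libraries. SRp55 siRNA replicate 3 lay just above the lowest control and the other SRp55 siRNA libraries below every control. The mean was 59.6% of control, with a log2 fold change of -0.90, or -0.79 as deposited (SE 0.25, limma adjusted p = 0.0940). GOLGA4 passed under the replicate block (0.0234), with size factors (0.0308) and with summed reads (0.00225). GOLGA1, another golgin of the trans-Golgi network, was at 0.27.

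A gene sum in RPKM gives a short transcript model the same weight as a long one, so the sums were set beside the longest protein-coding transcript of each gene, a comparison chosen after the data were seen. That transcript held a median of 20.9% of the member's control sum and under 25% in 28 of the 50. Fitted over 10171 genes, with 46 of the members, 0 members were called higher and 4 lower, where 2.3% and 1.77% of all genes were. The 4 were SAR1B, SRPRA, COPB2 and GOLGA3. The GOLGA3 transcript, ENST00000204726.3, was listed at 0 in control replicate 1 and in every SRp55 siRNA library. Summed with ENST00000450791.2, a nearly equal model, it averaged 7.32 RPKM with control siRNA and 6.34 RPKM with SRp55 siRNA. The GOLGA3 gene sum did not pass (limma adjusted p = 0.557), so this call is of 1 model and not of the gene. The SAR1B transcript, ENST00000402673.2 of 6682 bases, was at 24, 17.0, 19.4, 19.3 and 16.8 RPKM in control and at 6.47, 8.16, 6.37, 8.39 and 3.76 RPKM in SRp55 siRNA libraries. Unlike the gene sum these groups were far apart (log2 fold change -1.52, SE 0.20, limma adjusted p = 0.00438).

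The SRPRA transcript, of 3069 bases and 93.4% of the control sum, went from 65.1 ± 2.44 to 52.2 ± 1.46 RPKM (SD, n = 5; log2 fold change -0.33, limma adjusted p = 0.0121). The COPB2 transcript, of 3360 bases, was at 25.7, 34.1, 39.3, 35.5 and 24.4 RPKM in control and at 18.3, 11.9, 20.3, 23.4 and 15.1 RPKM in SRp55 siRNA libraries (-0.84, limma adjusted p = 0.0472). The groups again did not overlap. SEC63 differed: its 6411-base transcript held 5.16% of the control sum and stood at 5.90 ± 0.215 and 5.35 ± 1.17 RPKM (-0.16, limma adjusted p = 0.596). Most of the SEC63 sum was assigned to short models, and transcripts annotated as retained intron held 77.2% of it in control and 75.1% in SRp55 siRNA libraries. For SEC23A the longest model was below the filter, and the transcript with most of its RPKM, ENST00000307712.6 of 4135 bases, held 72.6% of the sum in control and 69.1% in SRp55 siRNA libraries.

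**Figure D4:**
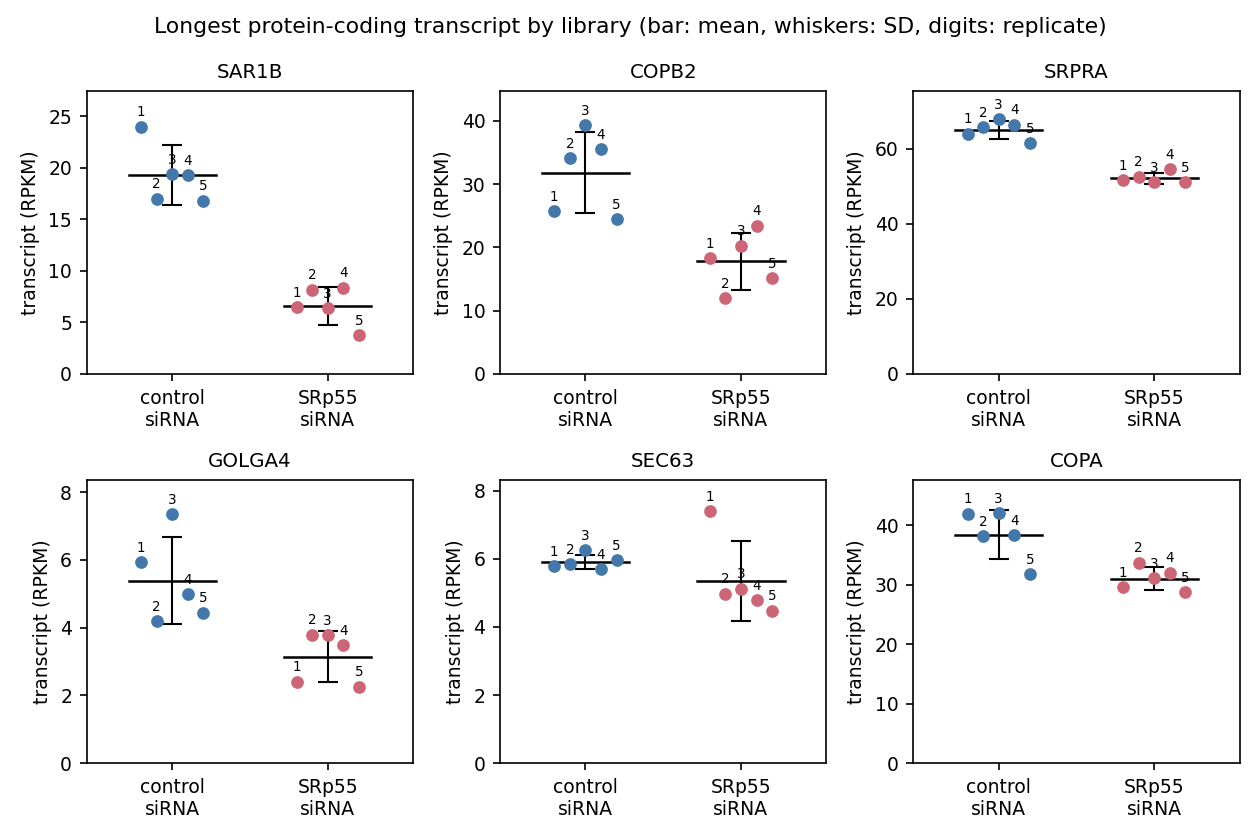
Longest protein-coding transcript in RPKM (y axis, from 0) of 6 genes by library, with mean (bar), SD (whiskers) and replicate number. SAR1B, COPB2, SRPRA and GOLGA4 are lower in every SRp55 siRNA library than in any control siRNA library, while SEC63 at 5.90 and 5.35 RPKM on average overlaps, as does COPA.

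Transcript usage, meaning how many percent of the gene sum in RPKM lie in a given transcript, could be tested in 46 members. GOLGA3, a Golgi-associated coiled-coil protein, was the only one called (limma diffSplice adjusted p = 0.00126, and a mean shift of 10 points or more), where 0.343% of 9915 genes were. The members were chosen with earlier results of these data known. The call and its count are therefore a description and no independent support, under the main fit and the alternatives alike. The transcripts involved are a pair of nearly equal full-length models on chromosome 12, minus strand, GRCh37. ENST00000204726.3 spans 133345495 to 133405288 (9252 bases) and ENST00000450791.2 spans 133345501 to 133398898 (8871 bases). In GENCODE 44 the present versions of both share 22 of 24 exons and the same 4494-base coding sequence.

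ENST00000204726.3 was listed at 0, 7.93, 6.38, 6.17 and 6.05 RPKM in control replicates 1 to 5 and at 0 in all 5 SRp55 siRNA libraries. ENST00000450791.2 was at 7.2, 0, 0, 1.78 and 1.08 RPKM in control and at 6.93, 6.27, 6.13, 6.34 and 6.07 RPKM in SRp55 siRNA libraries. Each library thus listed most of the level under 1 of the pair, and control replicate 1 had the SRp55 siRNA pattern. As a percent of the gene, ENST00000204726.3 was at 0, 75.2, 71.3, 38.9 and 63.4 in control (exact permutation p = 0.0476), and ENST00000450791.2 at 47.0, 0, 0, 11.2 and 11.3 in control and 52.4, 64.7, 63.8, 68.4 and 64.6 in SRp55 siRNA libraries (exact permutation p = 0.00794). Their sum was 7.32 ± 0.652 RPKM with control siRNA against 6.34 ± 0.343 RPKM with SRp55 siRNA (SD, n = 5; exact permutation p = 0.0159), a much smaller difference than that of either one. Both transcripts were picked from these same libraries, as the largest fall and the largest rise of the called gene. The exact p-values are not adjusted and add no support to the call.

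The call for GOLGA3 held with the replicate block (adjusted p = 0.0160), with summed reads (0.000559) and without any 1 library (3.4e-10 to 0.0335). A transcript with at least 30% usage in some library and a listing of 0 in another was found in 8 of the 46 members (17.4%) and in 29.1% of all genes tested for usage, so such all-or-nothing listings are common in these files. The gene sum of GOLGA3 was 15.3, 10.6, 8.95, 15.8 and 9.53 RPKM in control and 13.2, 9.68, 9.6, 9.27 and 9.40 RPKM in SRp55 siRNA libraries, with overlapping groups (log2 fold change -0.31, SE 0.18, limma adjusted p = 0.557).

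**Figure D5:**
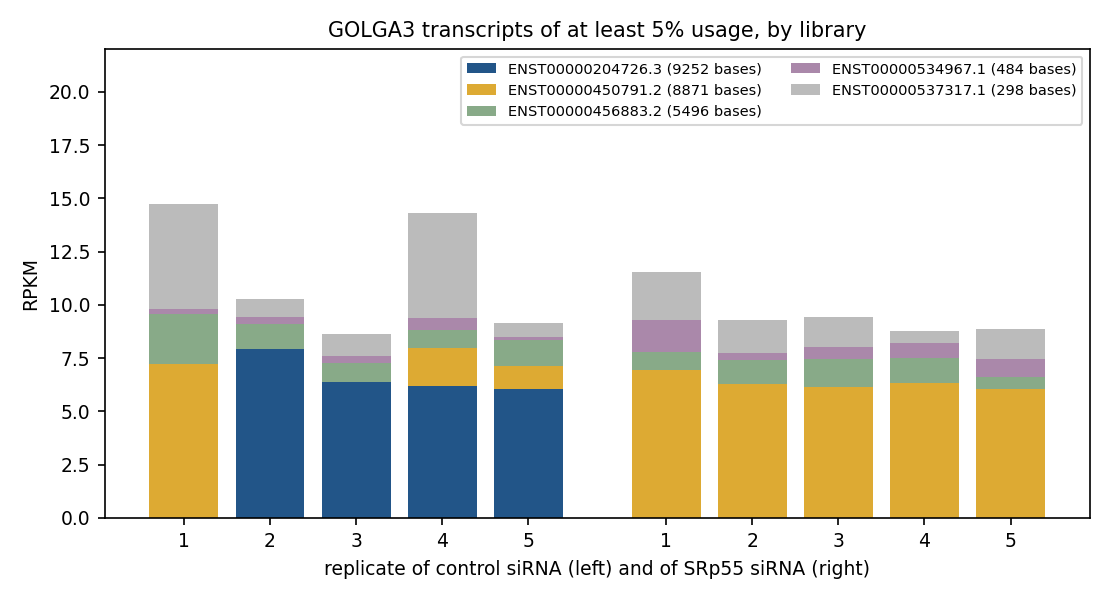
RPKM of the 5 GOLGA3 transcripts of at least 5% usage, stacked for each library. ENST00000204726.3 is present in control replicates 2 to 5 only, ENST00000450791.2 takes its place in control replicate 1 and in all SRp55 siRNA libraries, and the height of the pair together stays between 6.07 and 7.95 RPKM.

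SAR1B had the next smallest p for usage and was not called (limma diffSplice adjusted p = 0.124). Its 929-base transcript ENST00000439578.1 was at 20.7, 23.9, 20.2, 5.12 and 7.33 RPKM in control and at 1.35, 0.356, 0.638, 4.77 and 0.602 RPKM in SRp55 siRNA libraries. Control replicates 4 and 5 were near the SRp55 siRNA level. A shift of at least 10 points was seen in 10 of the 46 members, among them SEC61A2 (21.2 points) and SRP68 (18.6 points), which is 21.7% of them against 36.4% of the 9915 genes tested for usage. An unadjusted p under 0.05 was found in 4 (8.70%), against 8.17% of those genes.

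Genes that overlap another gene on the opposite strand can share its reads, and use of strand in counting is not given in the sources used here. An opposite-strand gene of at least 0.5 RPKM overlapped 18 of the 50 members, and in 7 of them the opposite gene had the higher mean. SAR1B and SEC24A themselves overlap head to head over 483 bases, with SAR1B the more abundant. COPB2 overlaps MRPS22 over 1624 bases and SRPRA overlaps FOXRED1 over 90 bases, and in both cases the member was the more abundant.

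Of 88 other genes of ER entry and ER to Golgi transport that were tested, 4 rose, 2 fell and 82 did not pass, with a median log2 fold change of 0.01. Over all 13630 genes tested, 3.76% were called higher and 1.25% lower. TMED4, a p24 family protein, went from 50.2 ± 1.77 to 35.7 ± 1.61 RPKM (SD, n = 5; log2 fold change -0.60, limma adjusted p = 0.0109). MMGT1, a subunit of the ER membrane protein complex, went from 10.9 ± 0.589 to 7.23 ± 1.29 RPKM (-0.69, 0.0295). Both showed no overlap between the groups. The rises were ERGIC2, a membrane protein of the ER-Golgi intermediate compartment, at 38.6 ± 8.27 and 60.4 ± 7.65 RPKM (0.55, limma adjusted p = 0.0369), TRAM2, a translocation-associated membrane protein, at 5.05 ± 0.284 and 6.77 ± 0.487 RPKM (0.28, 0.0371), EMC9, another subunit of the ER membrane protein complex, at 11.2 ± 4.45 and 19.4 ± 1.16 RPKM (0.73, 0.0411), and STT3B, a catalytic subunit of oligosaccharyltransferase, at 85.5 ± 4.37 and 112 ± 8.05 RPKM (0.28, 0.0425). TMED4 alone kept its call without any 1 library (adjusted p up to 0.0389). The other 5 lost it without most single libraries, with adjusted p up to 0.108 for STT3B, 0.101 for EMC9, 0.0957 for TRAM2, 0.0917 for ERGIC2 and 0.0757 for MMGT1, and all 5 kept it without control replicate 4. With size factors the calls of TRAM2 (0.152) and STT3B (0.102) were lost, and the groups of ERGIC2 and EMC9 overlapped. None of 15 ER to Golgi SNAREs and tethers and none of 10 other golgins passed.

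The promoters of the 50 genes were searched because many genes of this route are known targets of the unfolded protein response, whose factors XBP1 and ATF6 bind elements with the core TGACGTGG. RefSeq promoters of 300 bases (GRCh38.p14), which end just after the start, were listed for 46 members, and SRPRA, SPCS1, SEC24D and GOLGA4 had none. The word TGACGTGG on either strand was in 11 of 46 member promoters (23.9%), against 0.927% of 27305 genes with a promoter and 1.18% of the 10596 of these that were tested. The 11 were SRP19, SEC62, SSR3, SSR4, SEC23A, SEC24A, COPA, COPB1, COPB2, GOLGA1 and GOLGA5. The other 6 words searched were in these shares of member promoters and of tested genes' promoters: ACGTGG 56.5% against 15.7%, TGACGT 45.7% against 14.2%, CCACG 87.0% against 57.2%, ACTTCCGG 28.3% against 9.79%, GCCATCTT 13.0% against 6.34% and CCAATCG 8.70% against 6.56%. The first 3 of these overlap TGACGTGG or its reverse complement.

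The windows of the 5 holders with an unadjusted p under 0.05 are shown 5′ to 3′ on the strand that reads TGACGTGG, which is in capitals, so that the word can be seen in the rising SEC23A and the falling COPB2 alike. COPB2 holds it at 2 places.
SEC23A: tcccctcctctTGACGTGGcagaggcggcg
SEC24A: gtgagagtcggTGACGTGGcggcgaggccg
SSR3: agtttccttgcTGACGTGGctgttatcaga
GOLGA1: tggccgctcgcTGACGTGGcgaactgggct
COPB2, near the start: gtcagactgacTGACGTGGaacttccggga
COPB2, upstream: actaagggccgTGACGTGGtgccgctgagc
The word starts 4 bases before the start of SEC23A (chromosome 14, 39103232 to 39103239), 179 before that of SEC24A (chromosome 5, 134648606 to 134648613) and 41 before that of SSR3 (chromosome 3, 156554159 to 156554166). It starts 183 before that of GOLGA1 (chromosome 9, 124941259 to 124941266) and 3 and 196 before that of COPB2 (chromosome 3, 139389643 to 139389650 and 139389836 to 139389843). It reads along the gene in SEC23A, SEC24A and GOLGA1 and against it in SSR3 and COPB2. The 11 holders had a median log2 fold change of 0.16 (range -1.04 to 0.31, 6 above and 5 below 0) and the 35 other members with a promoter -0.06. A match is a description of the letters and not of binding.

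The 3′ UTR word AGGCTT, taken from earlier results of these data, was looked up in the GENCODE 44 transcripts. It was in 17 of 50 members (34%) and in 41.9% of 12618 tested genes with an annotated 3′ UTR. Members with it had a median log2 fold change of -0.14 and those without it -0.01, and over all genes the medians were -0.04 and 0.04. Genes that hold it have longer 3′ UTRs, with a median of 2762 against 889 bases over all genes. SAR1B, with up to 5801 bases of annotated 3′ UTR, holds 5 copies, 3 of them followed by an A. COPB2, with up to 1732 bases, holds 1. The sites below are shown because these are the members furthest below the median, in GRCh38 on the gene's strand, with the word in capitals. Of the 5 copies in SAR1B only the 3 followed by an A are shown. The word and these members were both picked from these data, so the matches are a description and no support.
SAR1B: gtctcaacgttcAGGCTTactcagagattt
SAR1B: ttaaggctctcaAGGCTTaggtatttacca
SAR1B: agcctcattgctAGGCTTactaagaaaatt
COPB2: aataatgaaaatAGGCTTctagttttagaa
The words lie at chromosome 5, 134606910 to 134606915, 134606278 to 134606283 and 134605458 to 134605463 for SAR1B, and at chromosome 3, 139357550 to 139357555 for COPB2. Of the other members called lower in some setting, SEC63 holds 2 copies and SEC23B 1, and GOLGA4, SRPRA, COPA and GOLGA3 hold none. Whether the word bears on the level of any of these genes was not tested.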

How the data were processed

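The members and gene lists were chosen with earlier results of these data known. PolyA RNA libraries of 5 control siRNA and 5 SRp55 siRNA preparations were grouped by their labels. Per the submitters' processing notes, TopHat and GRCh37 (hg19) were used for alignment. Which program and annotation release assigned the reads, and whether by strand, is not given in the sources used here. The deposited files list 155130 transcripts with estimated read counts and RPKM in a text field of other annotation. RPKM divides reads by length and a library total that exceeds the assigned reads. The assigned part, 82.1% ± 6.82 with control siRNA and 87.0% ± 7.24 with SRp55 siRNA (SD, n = 5), therefore enters RPKM.

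Gene values were sums of transcript RPKM. Genes averaging 0.5 RPKM or more were tested with limma 3.58.1 (R 4.3.3, trend and robust options, no block) on log2(RPKM + 0.5), with Benjamini-Hochberg adjustment over 13630 genes. This scale understates changes of low genes. The tests are of the values as deposited, and p-values measure spread between preparations of 1 cell line. Usage was tested with diffSplice on transcripts of at least 0.5 RPKM and 5% usage. The estimated counts served as an alternative, scaled to library totals. Symbols and biotypes came from GENCODE 44 by Ensembl ID, and coordinates are GRCh37 unless GRCh38 is named. Deviations from group means correlated at 0.13 to 0.41 between equal replicate numbers and at -0.17 to 0.12 between different ones, so the numbers were treated as pairs in an alternative. Values are given in every library for called members, GOLGA3, and the most abundant and most changed member of each of 8 role groups.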

Additional observations from a re-analysis of the deposited data

Results flagged for a closer look

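Among 48 groups of 5 values tested for a single library far from the others, 3 held one, and chance marks about 1 in 20 groups. In SEC23A, SRp55 siRNA replicate 3 was highest at 17.5 RPKM, set apart from the other SRp55 siRNA libraries. In GOLGA3, SRp55 siRNA replicate 1 was highest at 13.2 RPKM, with the other SRp55 siRNA libraries close together below it. In the SEC23A share of SEC23A and SEC23B, control replicate 4 was lowest at 15.8%.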

How the results depend on the processing

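Members called higher numbered 1 as reported, 0 with median-of-ratios size factors, 4 with the replicate block, 7 without control replicates 1 and 4, 0 with the longest protein-coding transcript alone, and 0 to 1 without any 1 library. Members called lower numbered 1 as reported, 6 with size factors, 8 with summed reads, 0 with no filter, 4 with the replicate block, 7 with size factors and the block together, 0 without control replicates 1 and 4, 4 with the longest transcript, and 0 to 1 without any 1 library. The last 3 choices named for either count (size factors with the block, controls 1 and 4 left out, longest transcript) were made after seeing the data. The 4 called lower with the longest transcript include GOLGA3, whose model was listed at 0 in every SRp55 siRNA library. For most settings the shares of all genes called are given above, and they apply to other pathway genes too. Calls in either direction numbered 1566 of 13630 genes with size factors and the block, and 642 of 20685 with no filter. Without any 1 library they numbered 259 of 13642 to 1083 of 13610 genes. Other pathway genes called higher numbered 4 as reported, 2 with size factors, 2 with size factors and the block, 5 with the block alone, 8 without control replicates 1 and 4, 3 with the longest transcript and 0 to 5 without any 1 library; those called lower numbered 2, 7 with size factors, 10 with summed reads, 4 with the replicate block, 7 with both size factors and the block, 2 without control replicates 1 and 4, 1 with the longest transcript and 1 to 2 without any 1 library. The called usage of GOLGA3 stayed at 1 member in every setting.

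Pairing by replicate number leaves a mean difference the same by arithmetic, so the 6 paralog shares that passed have paired differences of 7.45 points (SEC23A), 1.98 (SEC24A), -1.40 (SEC24B), -5.53 (SEC24C), 4.95 (SEC24D) and 18.7 (SAR1A), and as 5 pairs cannot give an exact p below 0.0625, none can pass in that form. Without any 1 library the differences ranged from 7.01 to 7.69 for SEC23A, 1.69 to 2.27 for SEC24A, -1.71 to -1.11 for SEC24B, -6.35 to -4.74 for SEC24C, 4.21 to 5.55 for SEC24D and 15.5 to 22.5 for SAR1A, with exact adjusted p up to 0.0476 for SEC23A, SEC24A and SEC24D, 0.0952 for SEC24B and 0.0714 for SEC24C and SAR1A. The SEC61A1 share, not called, ranged from -0.19 to 1.9 points. The sign of the uncalled SEC13 fold change turned without SRp55 siRNA replicate 1, with a range of -0.0699 to 0.156 over the left-out libraries, and that of COPG1 turned with summed reads (-0.0399). The cause of these changes was not tested. Of 270 values of named genes under the alternatives without those 3 choices, 240 kept direction and side of the threshold.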
